A study of Mus musculus with 12 samples.

Results

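The ETS family of transcription factors was followed through 4 cell populations of the basophil lineage of mouse bone marrow. Its members here were 7 genes, Spi1, Fli1, Erg, Etv6, Ets1, Elf1 and Elf4, taken by symbol from a table of 14560 genes; all 7 were found, and each had at least 162 reads in every library. The series holds 12 RNA-seq libraries, 3 from each population, from C57BL/6 mice, and the labels name no transgene, deletion or treatment. DN-GMPs are granulocyte-monocyte progenitors (lineage-negative, c-Kit+, Sca1-, CD34+, CD16/32+) with neither E-cadherin (CDH1) nor the IgE receptor chain FceRIa on the surface. Pro-BMPs, basophil and mast cell progenitors, have CDH1 and no FceRIa, and Pre-BMPs have FceRIa and are labelled CDH1-negative. Basophils were sorted as c-Kit-, Sca1-, CD49b+, FceRIa+ cells negative for B220, CD4, CD8a and Ter119. An age is not given in the sources used here, the cells are not a cell line, and the design text names 3 mice in all without tying a library number to a mouse. P-values therefore measure the spread between libraries.

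ETS proteins share a DNA-binding domain that recognises a short core, GGAA, read as TTCC on the opposite strand, and they differ in the bases preferred around it and in their partner proteins. PU.1, the product of Spi1, works by dose in blood formation, where high amounts favour macrophages and other levels favour granulocytes or B cells. FLI1 and ERG maintain stem cells and drive megakaryocyte genes, ETV6 is a repressor needed by adult blood stem cells, ETS1 is best known in lymphocytes, and ELF1 and ELF4 act in lymphoid and myeloid cells, ELF4 also as a brake on proliferation.

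RefSeq promoter windows (assembly GRCm38.p6) were at hand for 4 of the 7 members, and those 4 are shown. Elf1 and Elf4 had more RNA in basophils than in DN-GMPs, and Erg and Etv6 had less. For Erg and Etv6 the test result depended on single libraries, as given below. A link between the windows and these changes was not tested. Each line gives the 250 bases before the first listed start, 5′ to 3′ on the gene's strand, with every GGAA or TTCC in capitals.
Elf4, chrX:48463133-48463382, minus strand: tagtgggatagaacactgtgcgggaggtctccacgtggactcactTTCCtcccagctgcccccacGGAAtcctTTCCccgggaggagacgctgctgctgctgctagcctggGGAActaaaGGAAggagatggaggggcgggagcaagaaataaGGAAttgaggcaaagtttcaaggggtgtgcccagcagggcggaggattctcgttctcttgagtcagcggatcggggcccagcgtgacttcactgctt
Elf1, chr14:79480944-79481193, plus strand: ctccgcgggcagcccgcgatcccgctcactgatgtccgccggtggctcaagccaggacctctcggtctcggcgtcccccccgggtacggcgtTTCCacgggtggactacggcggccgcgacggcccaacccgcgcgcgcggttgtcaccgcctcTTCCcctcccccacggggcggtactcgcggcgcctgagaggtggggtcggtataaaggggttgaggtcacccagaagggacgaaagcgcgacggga
Etv6, chr6:134035450-134035699, plus strand: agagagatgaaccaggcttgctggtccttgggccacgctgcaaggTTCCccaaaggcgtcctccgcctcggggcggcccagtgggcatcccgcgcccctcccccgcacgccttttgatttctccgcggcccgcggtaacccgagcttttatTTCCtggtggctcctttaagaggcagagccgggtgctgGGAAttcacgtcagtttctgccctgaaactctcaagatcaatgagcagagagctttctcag
Erg, chr16:95586594-95586843, minus strand: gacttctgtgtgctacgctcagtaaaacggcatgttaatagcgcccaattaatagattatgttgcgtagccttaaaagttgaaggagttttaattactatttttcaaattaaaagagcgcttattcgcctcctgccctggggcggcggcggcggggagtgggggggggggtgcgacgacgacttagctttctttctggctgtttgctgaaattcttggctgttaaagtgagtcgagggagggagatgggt
The Elf4 window held 6 cores, the Elf1 window 2, the Etv6 window 3 and the Erg window 0, counting both strands. The core is common: 93.4% of 32851 promoter windows of this length had at least 1, with a median of 3. Longer words were also searched on both strands. CCGGAAGT, a strong site of many ETS factors that contains the core, was in 2.88% of all windows, GAGGAAGT, a PU.1-type word, in 2.44%, and AGATAA, bound by GATA factors, in 9.99%; none of the 3 was in the 4 windows printed here. GC content was 58.4% for Elf4, 71.6% for Elf1, 60.4% for Etv6 and 48.8% for Erg, beside a median of 52.4% over all windows. The table lists further starts for Elf4, Elf1 and Erg, and the counts differ between starts of a gene. The windows before the further starts held 2 cores for Elf4, 0 for Elf1, and 4 and 2 for Erg. The last of these Erg windows also held 1 AGATAA. Which start these cells used was not measured.

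Reads assigned to genes numbered 29762981 to 42502405 per library. Levels are given as counts per 1000000 (CPM) of the scaled library size that the authors used, as mean ± SD of 3 libraries, and changes as log2 differences with standard error (SE). A change was called where the limma p, adjusted by Benjamini-Hochberg over all 14560 genes, was under 0.05. A sum of 6 basophil markers (Prss34, Mcpt8, Fcer1a, Ms4a2, Cpa3, Cd200r3) spanned 62.05 to 98.7 CPM in DN-GMPs, 944 to 1181 CPM in Pro-BMPs, 4351 to 5084 CPM in Pre-BMPs, then 36124 to 42248 CPM in basophils, with Fcer1a and Cd200r3 at 0 in the DN-GMP libraries. The population labels and this order ran the same way. The libraries are bulk samples, so fewer cells of a type and less RNA per cell cannot be told apart in any value below. The comparisons share populations and are not independent of each other.

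By the F-test over the 4 populations, 7 of 7 ETS members varied, against 46.8% of all genes. The change was uneven along the lineage. Between Pro-BMPs and DN-GMPs 1 member was called higher (Ets1) and 0 lower, against 2.00% higher and 0.536% lower of all genes (2.53% either way). Between Pre-BMPs and Pro-BMPs 1 was higher (Ets1) and 1 lower (Spi1), against 4.80% and 4.69% (9.49% either way). Between basophils and Pre-BMPs 4 were higher (Ets1, Spi1, Elf4, Fli1) and 1 lower (Etv6), against 13.9% and 16.5% (30.4% either way), and the median log2 change was 0.99 over the members and -0.10 over all genes. Between basophils and DN-GMPs 4 were higher (Ets1, Elf4, Fli1, Elf1) and 2 lower (Erg, Etv6), against 23.2% in each direction (46.4% either way). Between Pre-BMPs and DN-GMPs 2 were higher (Ets1, Elf1) and 1 lower (Spi1), against 12.2% and 9.69% (21.9% either way).

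**Figure D1:**
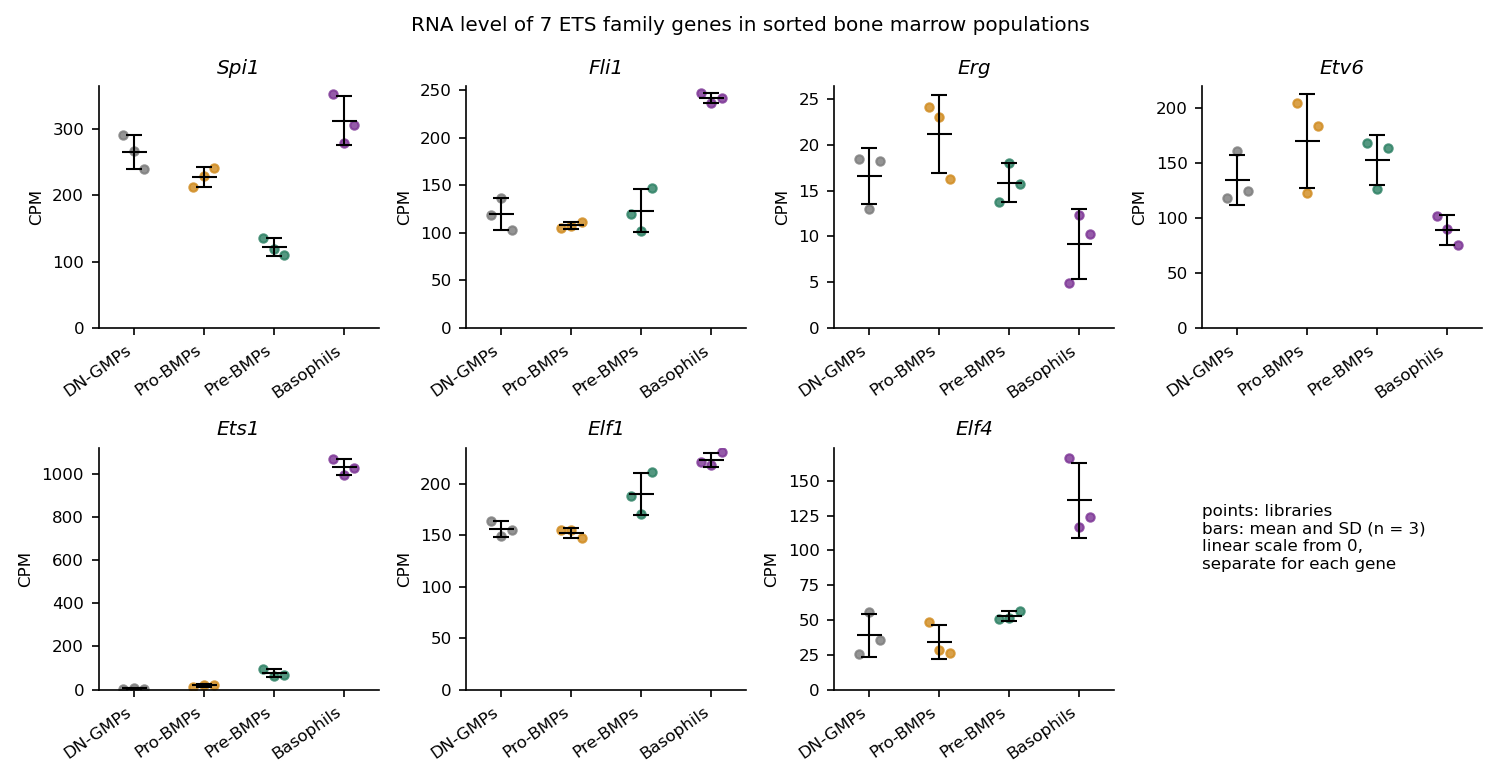
CPM (linear axis, separate for each gene) of the 7 ETS members in each library, with populations in lineage order. Points are libraries, and bars give mean and SD. Ets1 climbs at every stage to 994 to 1070 CPM in basophils, and Spi1 is lowest in the Pre-BMPs, at 110.5 to 136 CPM.

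Spi1 (ENSMUSG00000002111; GRCm38 chromosome 2, 91082390 to 91115756, plus strand) encodes PU.1 and dipped in the middle of the series. DN-GMP libraries had 290.4, 267 and 239 CPM, Pro-BMP libraries 212, 229 and 242 CPM, Pre-BMP libraries 136, 119 and 110.5 CPM and basophil libraries 353, 279 and 306 CPM. All 3 Pre-BMP libraries lay below every library of the other populations. In Pre-BMPs the level averaged 122 ± 13.3 CPM, against 227 ± 14.7 CPM in Pro-BMPs, a log2 change of -0.90 (SE 0.116, limma adjusted p = 0.000672). Against DN-GMPs (266 ± 25.6 CPM) the Pre-BMP change was -1.12 (SE 0.116, limma adjusted p = 5.02e-05). Basophils averaged 313 ± 37.2 CPM, 2.56-fold the Pre-BMP level (log2 1.36, SE 0.116, limma adjusted p = 7.87e-06). Basophils and DN-GMPs overlapped, and their difference was not called (log2 0.23, 95% interval -0.02 to 0.49, limma adjusted p = 0.122). That value was -0.03 when libraries were scaled by their total reads in place of the authors' factor, and -0.03 after quantile normalization. Pro-BMPs and DN-GMPs also overlapped (log2 -0.22, limma adjusted p = 0.453).

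Ets1 (ENSMUSG00000032035; chromosome 9, 32636221 to 32757820, plus strand) had the largest change of the 7 members in the comparison of basophils with DN-GMPs. DN-GMP libraries had 3.44, 9.39 and 4.59 CPM, or 162, 456 and 185 reads, and Pro-BMP libraries had 11.97, 23.2 and 22.6 CPM. Pre-BMP libraries had 95.6, 61.96 and 69.5 CPM, and basophil libraries 1069.7, 994 and 1029.9 CPM. No library of any population overlapped those of the stage before it. Basophils averaged 1031 ± 38.0 CPM and Pre-BMPs 75.7 ± 17.7 CPM, a 13.9-fold difference (log2 3.79, SE 0.354, limma adjusted p = 1.42e-05). Pre-BMPs were 4.03-fold above Pro-BMPs (log2 2.01, SE 0.354, limma adjusted p = 0.00479). Pro-BMPs, at 19.3 ± 6.33 CPM, were 3.48-fold above DN-GMPs, at 5.81 ± 3.15 CPM (log2 1.80, SE 0.354, limma adjusted p = 0.0199). That first step lost its call in 6 of 13 alternative settings: its adjusted p was 0.114 with voom weights, 0.167 with the 2 populations fitted alone, 0.0605 without DN-GMP library 1, 0.0711 without DN-GMP library 3, 0.0758 without Pro-BMP library 2 and 0.0865 without Pro-BMP library 3. From end to end, basophils stood 194-fold above DN-GMPs (log2 7.60, SE 0.354, limma adjusted p = 3.22e-08). ETS1 is prominent in T, NK and B cells, so their markers were read in the same libraries. Of 12 T and NK cell markers the table holds 2, Nkg7 and Prf1, and their sum was 423 to 535 CPM in basophils, against 611 to 675 CPM in Pre-BMPs. The sum was almost all Nkg7, which averaged 479 CPM in basophils and 648 CPM in Pre-BMPs, while Prf1 averaged 2.72 ± 2.55 CPM in basophils and 0.828 ± 0.717 CPM in Pre-BMPs. Of 6 B cell markers it holds 2, Cd79a and Cd79b, at 64.1 to 76.3 CPM in sum in basophils, against 30.4 to 40.9 CPM in Pre-BMPs. The basophil gate left out B220+, CD4+ and CD8a+ cells. The part of any remaining lymphoid cells in the Ets1 level was not tested.

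Fli1 and Erg are close paralogs. Fli1 (ENSMUSG00000016087; chromosome 9, 32422204 to 32542861, minus strand) lies close to Ets1 on the same chromosome, on the other strand. Its progenitor libraries overlapped: DN-GMP libraries had 119, 137 and 103 CPM, Pro-BMP libraries 105, 108 and 111 CPM, and Pre-BMP libraries 119.8, 102 and 147 CPM. Basophil libraries had 247, 237 and 242 CPM, all above every progenitor library. Basophils were 1.99-fold above Pre-BMPs (log2 0.99, SE 0.138, limma adjusted p = 0.000279) and 2.04-fold above DN-GMPs (log2 1.03, SE 0.138, limma adjusted p = 0.000105). The 3 progenitor populations were not separated by the test: the log2 change of Pre-BMPs against DN-GMPs was 0.04 with a 95% interval of -0.27 to 0.34.

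Erg (ENSMUSG00000040732; chromosome 16, 95359169 to 95586593, minus strand) had the lowest level per length of the 7 members in basophils. DN-GMP libraries had 18.4, 13.1 and 18.3 CPM, Pro-BMP libraries 24.1, 23.1 and 16.3 CPM, Pre-BMP libraries 13.8, 18.0 and 15.8 CPM, and basophil libraries 4.90, 12.3 and 10.3 CPM. The basophil libraries were the lowest 3 of the 12. Basophils averaged 9.17 ± 3.83 CPM and DN-GMPs 16.6 ± 3.07 CPM (log2 -0.94, SE 0.344, limma adjusted p = 0.0429). This call depended on single libraries: without basophil library 1 the change was -0.54 with an adjusted p of 0.151, and without DN-GMP library 1 or 3 the adjusted p was 0.109 in either case. It also missed the threshold with voom weights (0.0543) and with the 2 populations fitted alone (0.119). Against Pre-BMPs the change was -0.88 and was not called (95% interval -1.64 to -0.13, limma adjusted p = 0.0755), although the libraries did not overlap. The call was made with scaling by total reads (adjusted p = 0.0200) and without basophil library 2 (adjusted p = 0.0356).

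Etv6 (ENSMUSG00000030199; chromosome 6, 134035700 to 134270158, plus strand), the repressor, was lower in basophils. DN-GMP libraries had 119, 161 and 124 CPM, Pro-BMP libraries 205, 123 and 184 CPM, Pre-BMP libraries 168, 127 and 164 CPM and basophil libraries 102, 89.9 and 75.3 CPM. Every basophil library was below every progenitor library, while the 3 progenitor populations overlapped. Basophils averaged 89.2 ± 13.6 CPM and Pre-BMPs 153 ± 22.7 CPM, a log2 change of -0.78 (SE 0.206, limma adjusted p = 0.0142). The call was lost without Pre-BMP library 1 (adjusted p = 0.0539) and without basophil library 3 (adjusted p = 0.0527). Against DN-GMPs, at 135 ± 22.9 CPM, the change was -0.59 (SE 0.206, limma adjusted p = 0.0346). That p was 0.0519 with voom weights, 0.122 without DN-GMP library 2, 0.0534 without DN-GMP library 3, 0.0675 without basophil library 2 and 0.116 without basophil library 3. The annotation places an antisense gene, Gm17089, over 135 exon bases of Etv6; the libraries do not mark strand, and Gm17089 itself averaged between 0.49 and 1.62 CPM.

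Elf1 and Elf4 are related activators. Elf1 (ENSMUSG00000036461; chromosome 14, 79481194 to 79582494, plus strand) had the smallest ratio of its highest to its lowest population mean among the 7 members. The DN-GMP libraries had 164, 149 and 155 CPM, Pro-BMP libraries 155, 155 and 147 CPM, Pre-BMP libraries 188, 170.5 and 211 CPM and basophil libraries 221, 218 and 231 CPM. Basophils were 1.43-fold above DN-GMPs (log2 0.52, SE 0.0921, limma adjusted p = 0.00078), a change of 0.26 when libraries were scaled by total reads. Pre-BMPs were above DN-GMPs by 0.28 (SE 0.0921, limma adjusted p = 0.0497), a call lost in 8 of 13 alternatives with an adjusted p as high as 0.179. Among the 6 settings that left out 1 of the DN-GMP or Pre-BMP libraries, 1 kept it. The single steps were not called, with log2 changes of 0.32 for Pre-BMPs against Pro-BMPs (limma adjusted p = 0.0551) and 0.24 for basophils against Pre-BMPs (limma adjusted p = 0.0759). The last of these took the other sign with total reads (-0.08) and with quantile normalization (-0.08). Elf1 shares 327 exon bases with Wbp4 on the opposite strand, whose population means were between 25.1 and 29.9 CPM.

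Elf4 (ENSMUSG00000031103; chromosome X, 48411046 to 48463132, minus strand) was highest in basophils. There were 25.7, 55.9 and 35.2 CPM in the DN-GMP libraries, 48.4, 28.7 and 26.2 CPM in the Pro-BMP libraries, 50.5, 51.5 and 56.5 CPM in the Pre-BMP libraries and 167, 117 and 124 CPM in the basophil libraries. Every basophil library lay above every progenitor library. Basophils averaged 136 ± 26.9 CPM and Pre-BMPs 52.8 ± 3.24 CPM, a 2.54-fold difference (log2 1.35, SE 0.294, limma adjusted p = 0.00496). Against DN-GMPs, at 39.0 ± 15.4 CPM, basophils were 3.62-fold higher (log2 1.86, SE 0.294, limma adjusted p = 0.000338). Pre-BMPs lay above all Pro-BMP libraries, but that step was not called (log2 0.67, 95% interval 0.03 to 1.31, limma adjusted p = 0.198).

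The libraries of basophils and Pre-BMPs did not overlap for 7 of 7 members, which held for 46.5% of all genes. Between basophils and DN-GMPs they did not overlap for 6 members (54.1% of all genes), Spi1 being the exception. Only the Ets1 libraries were apart between Pro-BMPs and DN-GMPs (18.7% of all genes). Between Pre-BMPs and Pro-BMPs those of Spi1, Ets1, Elf1 and Elf4 were apart (32.0% of all genes). Spi1, Ets1 and Elf1 were apart between Pre-BMPs and DN-GMPs (39.1% of all genes). Scaling by total reads shifted the median log2 change of all genes between basophils and Pre-BMPs by -0.32, to -0.42. It changed the split of calls to 1379 higher and 3813 lower, against 2019 higher and 2408 lower with the deposited values. Relative to Pre-BMPs, Spi1 was then at 1.04, Fli1 at 0.67, Elf4 at 1.02, Ets1 at 3.47, Etv6 at -1.10 and Erg at -1.20 on the log2 scale. Between basophils and DN-GMPs the split became 2702 higher and 4276 lower, against 3373 and 3376, and the all-gene median shifted by -0.26.

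**Figure D2:**
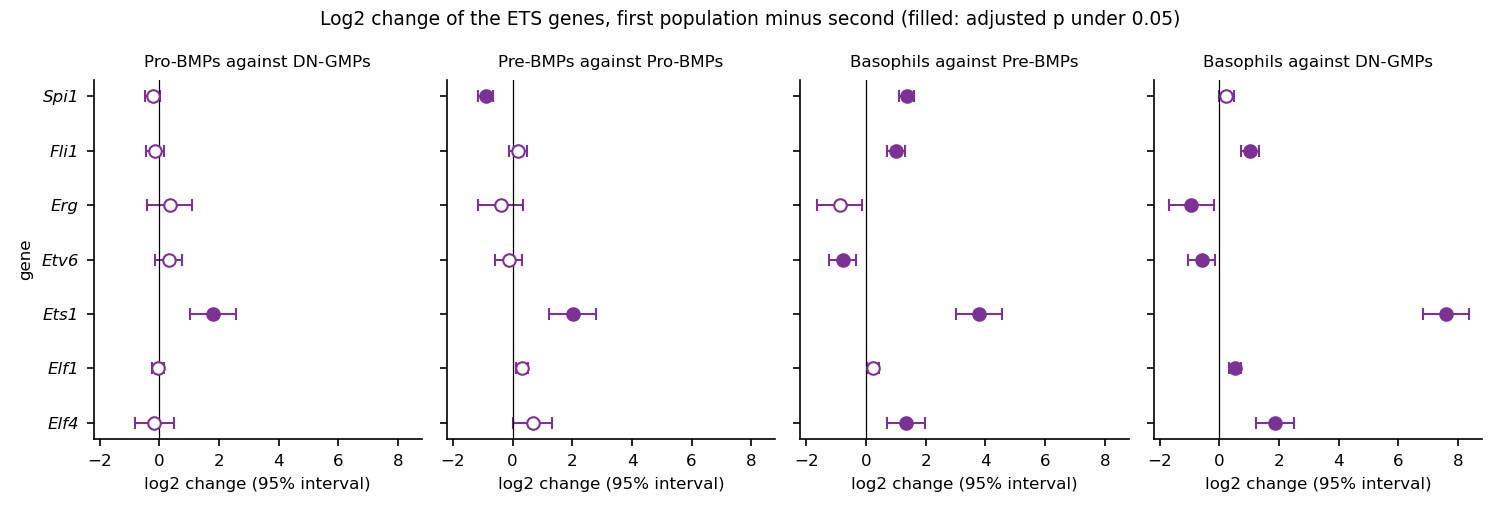
Log2 change (x axis) of each ETS member in 4 comparisons, with 95% limma intervals; filled points were called at an adjusted p under 0.05. Basophils against Pre-BMPs holds 5 called members, among them Spi1 at 1.36 and Etv6 at -0.78, while Pro-BMPs against DN-GMPs holds 1.

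To compare members with each other, CPM was divided by gene length in kilobases (all annotated exons merged), and each member was expressed as a share of the sum over the 18 ETS genes of the table. By this measure Spi1 held 44.1 ± 2.54% of the family level in DN-GMPs, 39.3 ± 2.32% in Pro-BMPs, 23.5 ± 2.47% in Pre-BMPs, then 27.0 ± 1.68% in basophils. Ets1 held 0.30 ± 0.15% in DN-GMPs, 1.06 ± 0.35% in Pro-BMPs, 4.61 ± 0.87% in Pre-BMPs, then 28.4 ± 0.65% in basophils. In basophils the libraries of the 2 genes overlapped per length: Ets1 stood at 122 CPM per kilobase, with libraries from 117 to 126, and Spi1 at 116 CPM per kilobase, with libraries from 104 to 131. That order depends on the length used. With the longest coding transcript, a choice made after the values were seen, Ets1 stood at 203 CPM per kilobase and Spi1 at 154 CPM per kilobase, and their libraries did not overlap. Fli1 held a share of 15.3% in DN-GMPs, 14.4% in Pro-BMPs, 18.3% in Pre-BMPs, then 16.2% in basophils. Etv6 held 13.2% in Pre-BMPs, then 3.47% in basophils, and Erg 2.39% in Pre-BMPs, then 0.63% in basophils. The summed level of the 18 genes was 224 ± 18.5 CPM per kilobase in DN-GMPs, 215 ± 7.28 in Pro-BMPs, 193 ± 12.1 in Pre-BMPs, then 429 ± 24.6 in basophils. A share also depends on this sum: the Spi1 level itself was 98.5 CPM per kilobase in DN-GMPs and 116 in basophils. Etv6 was at 25.6 CPM per kilobase in Pre-BMPs and 14.9 in basophils. The sum rests on the authors' scaled library sizes and was not computed with total reads. These shares describe the mixture and were not tested.

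**Figure D3:**
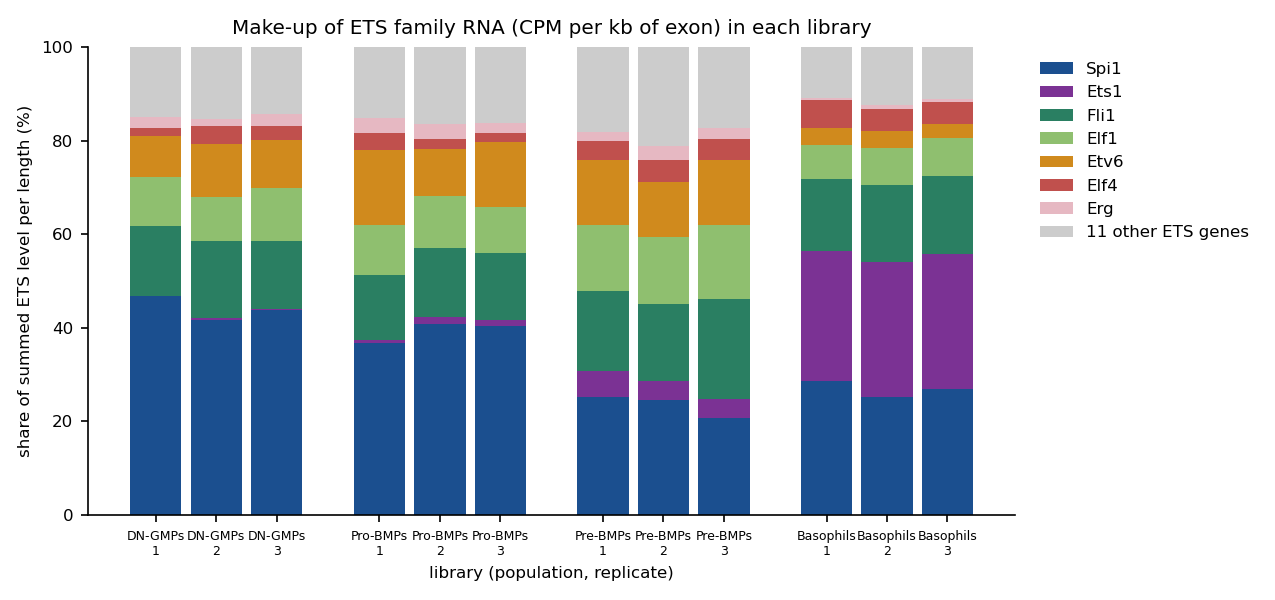
Share (percent, stacked bars from 0) of each ETS member in the level per kilobase of 18 ETS genes, 1 bar per library in lineage order. Ets1 takes 28.4% on average in basophils and 0.30% in DN-GMPs, and Spi1 takes 27.0% in basophils and 44.1% in DN-GMPs. The summed level was higher in basophils than in DN-GMPs, so a lower share need not mean a lower level.

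Of 19 further ETS genes listed, the table holds 11. With limma, 0 were called between Pro-BMPs and DN-GMPs and 0 between Pre-BMPs and Pro-BMPs; 1 had an unadjusted p under 0.05 in either comparison, and voom weights also called 0 in both. Between basophils and Pre-BMPs 4 of the 11 were higher and 1 lower, where 13.9% and 16.5% of all genes were. Between basophils and DN-GMPs 3 of the 11 were higher and 0 lower, where 23.2% of all genes were called in each direction; the share higher was near that of all genes. Their median log2 changes were 0.19 and 0.36 in those comparisons, against -0.10 and -0.01 over all genes. Etv3, a repressor, averaged 56.7 ± 5.10 CPM in basophils and 19.0 ± 4.88 CPM in Pre-BMPs (log2 1.61, limma adjusted p = 0.00284). Ets2, the paralog of Ets1, averaged 19.4 ± 2.63 CPM in basophils and 5.57 ± 2.43 CPM in Pre-BMPs (log2 1.91, limma adjusted p = 0.00706). Elk4, a serum response factor partner, averaged 42.3 ± 4.44 CPM in basophils and 20.5 ± 3.78 CPM in Pre-BMPs (log2 1.06, limma adjusted p = 0.0149); without Pre-BMP library 2 or with total reads the call was lost, with an adjusted p of up to 0.0672. Elk3 was at 53.6 ± 1.48 CPM in basophils and 36.3 ± 1.85 CPM in Pre-BMPs (log2 0.56, limma adjusted p = 0.0343), a call lost in 9 of 13 alternatives with an adjusted p of up to 0.334. Spic, a close relative of Spi1 known from red pulp macrophages, was at 0 in all DN-GMP libraries, had 1.53, 0.733 and 0 CPM in Pro-BMPs and 3.60, 1.25 and 2.85 CPM in Pre-BMPs, and was again at 0 in all basophil libraries. Against a limit of 3 reads per library, Pre-BMPs were at least 38.5-fold higher than DN-GMPs (limma adjusted p = 0.00711), and basophils at least 37.0-fold lower than Pre-BMPs (limma adjusted p = 0.00497). Elf2, Elk1, Erf, Etv1, Etv5 and Gabpa were called in no comparison.

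Factors that work with ETS proteins on DNA were also listed. Of 15 partner genes in the table (16 listed), 3 were higher and 2 lower between Pre-BMPs and Pro-BMPs, where 4.80% and 4.69% of all genes were. Between basophils and Pre-BMPs 5 were higher and 2 lower, where 13.9% and 16.5% of all genes were; the share lower was near that of all genes. Runx1, which pairs with ETS1 on composite sites, had 85.2 CPM in Pro-BMPs, 244 ± 36.2 CPM in Pre-BMPs, then 386 ± 13.4 CPM in basophils. Its log2 change was 1.51 for Pre-BMPs against Pro-BMPs (SE 0.112, limma adjusted p = 1.96e-05). For basophils against Pre-BMPs it was 0.67 (limma adjusted p = 0.000956, and 0.102 after quantile normalization). Gata2, whose protein can bind PU.1, averaged 23.2 CPM in DN-GMPs, 164 in Pro-BMPs, 770.2 in Pre-BMPs, then 2104 in basophils. Myb averaged 93.4 CPM in basophils and 485 CPM in Pre-BMPs (log2 -2.39, limma adjusted p = 1.59e-07). Lmo2, a bridge between ETS, GATA and TAL1 proteins, averaged 78.4 CPM in Pre-BMPs and 213 CPM in Pro-BMPs (log2 -1.45, limma adjusted p = 0.000103).

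Among listed genes that PU.1 is known to activate in blood cells, those called at the Pre-BMP stage were all lower. Those called in basophils went in both directions. Of 15 listed, 13 were in the table. Between Pro-BMPs and DN-GMPs limma called 0, with 4 at an unadjusted p under 0.05, and voom weights called 3 lower. Between Pre-BMPs and Pro-BMPs, where Spi1 was lower, 0 of the 13 were higher, against 4.80% of all genes, and 6 lower, against 4.69% (Csf1r, Csf3r, Cd14, Ncf1, Ncf4, Tlr4), with a median log2 change of -1.49 against 0.02 over all genes. Between basophils and Pre-BMPs, where Spi1 was higher, 6 were higher, against 13.9% of all genes (Itgam, Ncf1, Ncf4, Btk, Il7r, Tlr4), and 3 lower, against 16.5% (Csf2ra, Cybb, Flt3), with a median of 0.82 against -0.10. Between basophils and DN-GMPs, where Spi1 was not called, 4 were higher and 7 lower, where 23.2% of all genes were called in each direction. Ncf1, a subunit of the phagocyte oxidase, averaged 199.9 ± 28.6 CPM in DN-GMPs, 139 ± 22.8 in Pro-BMPs, 47.1 ± 12.4 in Pre-BMPs, then 672 ± 86.7 in basophils. Its log2 change was -1.58 for Pre-BMPs against Pro-BMPs (SE 0.196, limma adjusted p = 0.000529) and 3.86 for basophils against Pre-BMPs (limma adjusted p = 1.95e-07). Btk, a signalling kinase, had 245 ± 10.4 CPM in basophils and 139 CPM in Pre-BMPs (log2 0.82, SE 0.142, limma adjusted p = 0.00122). Csf3r, the G-CSF receptor, had 0.346, 7.32 and 0.689 CPM in Pre-BMPs, against 181 ± 17.6 CPM in Pro-BMPs (log2 -7.21, SE 0.95, limma adjusted p = 0.00081), and averaged 0.262 ± 0.274 CPM in basophils. Several of these genes also mark monocytes. A sum of 6 monocyte markers spanned 2001 to 2377 CPM in DN-GMPs, 349 to 449 CPM in Pro-BMPs, 29.3 to 40.2 in Pre-BMPs, then 253 to 440.3 in basophils. The basophil sum was mostly Ccr2, at 302 CPM on average in basophils and 5.92 CPM in Pre-BMPs. F13a1 was also called higher, at 31.1 CPM in basophils and 4.55 CPM in Pre-BMPs. Ly6c2 was called lower, at 5.59 CPM in basophils and 16.5 CPM in Pre-BMPs. Irf8 was also called lower, at 0.956 CPM in basophils and 4.09 CPM in Pre-BMPs. Csf1r and Cd14 were not called. Csf1r averaged 4.74 ± 3.26 CPM in basophils and 3.28 ± 5.68 CPM in Pre-BMPs. Cd14 averaged 0 CPM in basophils and 0.365 CPM in Pre-BMPs. A sum of 6 neutrophil progenitor markers spanned 19759 to 22706 CPM in DN-GMPs, 18656 to 20814 CPM in Pro-BMPs, 5648 to 6855 CPM in Pre-BMPs, then 3348 to 4586 CPM in basophils. Its largest part was Mpo, at 4386 CPM in Pre-BMPs and 2362 CPM in basophils. All 6 neutrophil progenitor markers were called lower between Pre-BMPs and Pro-BMPs, against 4.69% of all genes. Between basophils and Pre-BMPs, Mpo, Elane and Prtn3 were called lower, and Gfi1 was not called. Ctsg (682 CPM in Pre-BMPs, 1188 CPM in basophils) and Ms4a3 (405 and 558 CPM) were called higher. For 6 erythroid markers the sum was 27.7 to 36.1 CPM in Pro-BMPs, 198 to 272 CPM in Pre-BMPs, then 15.1 to 17.0 CPM in basophils. Of 7 mast cell markers 4 were in the table. Their sum was 908 to 1040 CPM in Pro-BMPs, 2171 to 2262 CPM in Pre-BMPs, then 3457 to 3885 CPM in basophils. The basophil sum was almost all Cpa3, at 3584.5 CPM on average, a gene that is also among the basophil markers. Kit averaged 22.4 CPM, Cma1 0.554 CPM and Tpsb2 0.0231 CPM in basophils. Between basophils and Pre-BMPs, Cpa3 was called higher, and Cma1, Tpsb2 and Kit lower. The part of cells of these types in the Spi1 dip and in these counts was not tested. Whether the Spi1 level had a part in the changes of the listed genes was not tested either.

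**Figure D4:**
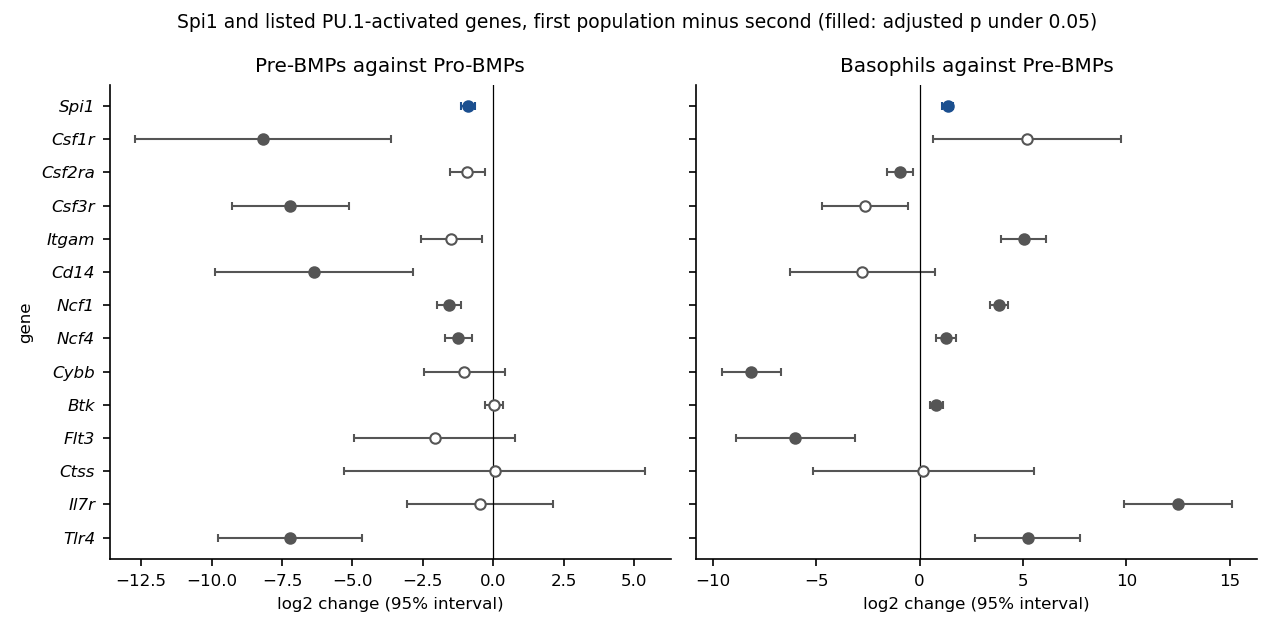
Log2 change of Spi1 and 13 genes known to be activated by PU.1, for Pre-BMPs against Pro-BMPs and for basophils against Pre-BMPs. Of the 13, 6 were called lower in the first comparison (4.69% of all genes), and 6 were called higher (13.9%) and 3 lower (16.5%) in the second.

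Genes that FLI1 is known to activate in megakaryocytes were read beside Fli1. Of 8 listed, 6 were in the table. Between basophils and Pre-BMPs, where Fli1 was higher, 1 of the 6 was higher (Itga2b) and 2 lower (Gp9, Pf4), where 13.9% and 16.5% of all genes were, so that the share higher was near that of all genes. The median log2 change was -2.45 against -0.10 over all genes. Itga2b, the integrin chain CD41, averaged 21.5 CPM in DN-GMPs, 132 CPM in Pro-BMPs, 405 CPM in Pre-BMPs, then 1341 ± 216 CPM in basophils; the last step had a log2 change of 1.73 (SE 0.285, limma adjusted p = 0.000866). Pf4, platelet factor 4, was at 0 in all basophil libraries, at least 86.7-fold lower than in Pre-BMPs by the limit of 3 reads per library. Gp9, a chain of the platelet receptor for von Willebrand factor, had 0, 0 and 1.41 CPM in basophils and averaged 10.2 CPM in Pre-BMPs (limma adjusted p = 0.00269). Gp1ba, another chain of that receptor, averaged 20.2 CPM in basophils and 21.2 CPM in Pre-BMPs. Of 6 megakaryocyte markers 5 were in the table, and their sum, mostly Itga2b, was 1191 to 1588 CPM in basophils, against 344 to 478 CPM in Pre-BMPs. Fli1 and Erg are also endothelial genes. Of 6 endothelial markers 4 were in the table, with a sum, mostly Pecam1, of 338 to 352 CPM in basophils, against 137 to 157 CPM in Pre-BMPs; Tie1 had 0.971, 0 and 0 CPM in basophils. The part of these cells in the Fli1 and Erg levels was not tested.

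Over the 12 libraries, the genes most like each member were found by Pearson's r of log2 values among 8652 genes with a mean of at least 10 CPM. These are descriptions over 12 libraries that share 4 populations, with no test. Spi1 was most like Slpi (0.973), Hk3 (0.972) and Arhgdib (0.971), and Ets1 most like Fads1 (0.991), Gsn (0.990) and Emilin2 (0.989). For Fli1 the nearest were Prkcd (0.978), Laptm5 (0.976) and Wdr1 (0.975), and for Elf4 Sipa1 (0.973), Nfatc1 (0.970) and Osm (0.966). For Elf1 they were Mindy2 (0.963), Plec (0.955) and Chn2 (0.955). Erg was nearest to Champ1 (0.951), Imp3 (0.944) and Cenph (0.939), and Etv6 to Nol9 (0.943), Prepl (0.919) and Acp6 (0.912).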

How the data were processed

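RNA from 12 libraries was measured in 4 sorted populations, 3 libraries each. SmartSeq v4 and Nextera XT, kits that keep no strand, were used on RNA of cells sorted 2 times, per the labels' protocols. Trimmomatic, STAR, deepTools and HTSeq are named in the submitters' processing notes without versions; build and annotation: not given in the sources used here. The authors deposited log2 values, from which whole reads (within 0.001) plus 0.5, per 1000000 of a scaled library size, were recovered for all genes. Scaled sizes were 40263971 to 58553590 reads. The table's 3 rows without a gene held, per library, 6.65% to 12.6% (no feature), 3.63% to 4.14% (ambiguous) and 8.51% to 12.1% (not unique) of reads and were left out. A count of 0 allows up to 3 reads, 0.0512 to 0.0745 CPM, for counting error only.

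The deposited log2 values were fitted with limma 3.58.1 in R 4.3.3, with a mean-variance trend, 1 mean per population over all 12 libraries, no block and no filter. P-values are two-sided and Benjamini-Hochberg adjusted over 14560 genes. The fit was also run on simulated counts in which all genes had the same setting of spread. A spread that differs by gene was not simulated, so that run cannot check the calls of single members. Alternatives were quantile normalization, scaling by total reads of listed genes, voom weights, 5 reads added, at least 1 CPM in at least 3 libraries, 2 populations fitted alone, a replicate block, and each library left out in turn; for list genes they were added after the data were seen. Gene positions and lengths are from GENCODE M21 (GRCm38). Named genes were the members, the other ETS genes (with values where called in a comparison), at most 4 genes per other list by mean CPM, and the 3 genes most like each member; further list genes are named only where called. Members and lists were chosen with earlier results of these data known. For the PU.1 list, 1 gene is not reported here.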

Additional observations from a re-analysis of the deposited data

How the results depend on the processing

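Over 35 member changes, 17 of them called, 13 alternatives for each change gave 455 values in all. Of these, 406 kept direction and side of the threshold, 27 lost a call, 7 gained one and 15, all of changes not called, took the other sign; 12 of the 17 calls held in every alternative tried. The 15 values were, with quantile normalization, 0.0118 for Elf1 in Pro-BMPs against DN-GMPs, -0.0752 for Elf1 in basophils against Pre-BMPs and -0.0349 for Spi1 in basophils against DN-GMPs. With total reads, they were -0.0848 for Elf1 in basophils against Pre-BMPs, 0.00526 for Erg in Pre-BMPs against DN-GMPs and -0.027 for Spi1 in basophils against DN-GMPs. Over the libraries left out in turn, the changes that turned ran from -0.0688 to 0.00274 for Elf1 and from -0.432 to 0.139 for Elf4 in Pro-BMPs against DN-GMPs, from -0.356 to 0.0158 for Etv6 in Pre-BMPs against Pro-BMPs, and in Pre-BMPs against DN-GMPs from -0.101 to 0.161 for Fli1 and from -0.22 to 0.0407 for Erg. The cause was not tested.

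For Pro-BMPs against DN-GMPs, 0 members were called with limma after voom weights or with the 2 populations fitted alone, against 1 in the fit reported. Over the libraries left out in turn, members called there ranged from 0 to 1. The fit of the 2 populations alone called 228 genes in that comparison, against 369. Leaving out single libraries gave 231 to 481 genes there and 778 to 1093 genes, against 1382, for Pre-BMPs against Pro-BMPs. In the last comparison 885 were called without Pro-BMP library 1, 778 without Pro-BMP library 2 and 792 without Pre-BMP library 3.

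Same-numbered libraries showed little shared deviation from their population means: correlations were -0.07 to 0.10, and 1 of 18 was over 0.1. Each best match was picked from the 3 libraries of another population, and 12 of 36 had the same number. Low correlations cannot show whether a number marks a mouse. With the replicate block, 312 genes were called in Pro-BMPs against DN-GMPs, 1216 in Pre-BMPs against Pro-BMPs, 4286 in basophils against Pre-BMPs, 2944 in Pre-BMPs against DN-GMPs and 6587 in basophils against DN-GMPs. The Elf1 call in Pre-BMPs against DN-GMPs (adjusted p = 0.0677) and the Erg call in basophils against DN-GMPs (adjusted p = 0.0611) were lost under it in limma. Elf1 in Pre-BMPs against Pro-BMPs gained a call with quantile normalization (0.0335), total reads (0.0382), voom weights (0.0425) and without Pre-BMP library 2 (0.0358), and Elf1 in basophils against Pre-BMPs without Pre-BMP library 3 (0.0278). Of 44 called changes of listed genes, 37 held in every alternative and 7 were lost in at least 1. Groups of 3 libraries limit the precision, most for Ets1, Erg and Elf4, whose SE were the largest of the 7 members.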

Other observations

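The annotation places further genes within Fli1 that share none of its exon bases. The table lists 5 of them, and they are described here after their values were seen, with no test. The highest was Gm37474, on the strand of Fli1, which averaged 8.98 CPM in DN-GMPs, 2.98 CPM in Pro-BMPs, 2.78 CPM in Pre-BMPs, then 15.7 CPM in basophils, where its libraries spread from 5.97 to 28.7 CPM. Gm38292, on the same strand, averaged 3.06 CPM in DN-GMPs, 0.75 CPM in Pro-BMPs, 0.80 CPM in Pre-BMPs, then 2.80 CPM in basophils. Gm27201, on the opposite strand, averaged 0.91 CPM in DN-GMPs, 0.48 CPM in Pro-BMPs, 0.41 CPM in Pre-BMPs, then 1.58 CPM in basophils. Gm37082 and Gm22060, both on the strand of Fli1, had population means of at most 1.24 CPM. The strands are those of the annotation, since the libraries do not mark strand. Whether reads at these genes came from unspliced Fli1 RNA was not tested.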
